A study of Drosophila melanogaster with 14 samples.

Results

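The 10 genes described here carry epidermal growth factor receptor (EGFR) signalling from ligand to MAP kinase and its feedback inhibitors. They were taken by gene name from the tables of both experiments, namely *spi*, *vn*, *rho*, *Egfr*, *Ras85D*, *rl*, *pnt*, *aos*, *sty* and *kek1*, out of 17493 genes with counts, and all 10 passed the filter on low counts in both experiments. In *Drosophila*, the ligands Spitz and Vein bind a single receptor, Egfr, which activates Ras, the Raf and MEK kinases and finally the MAP kinase Rolled. Rolled acts on ETS transcription factors such as Pointed, and several target genes of the pathway encode its own inhibitors. In the embryo the pathway is known for patterning the ventral ectoderm, the midline and the epidermis.

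The study asked how removal of the exons that are unique to the Sgg-PA or Sgg-PB isoforms of *shaggy* (*sgg*, the fly GSK-3 kinase) alters the embryonic transcriptome. Poly(A) RNA was sequenced from 14 samples of whole embryos collected at 10 to 15 h. Both alleles were exon deletions made with CRISPR/Cas9, from which the DsRED marker had been removed with Cre. The 3 isoA null samples came from a homozygous sgg isoA stock, so the embryos lacked the maternal and the zygotic product, and they were compared with 3 samples of the progenitor line, labelled attP40 or THattP40. Neither isoA group was sorted. The 4 isoB null samples were non-fluorescent embryos of sgg isoB/FM7-GFP mothers and FM7-GFP/Y fathers. By this cross they were hemizygous males, and they had maternal sgg isoB product. Their 4 control samples, which the labels also name attP40, were non-fluorescent embryos too. In the study these controls are called the progenitor stock in one place and the offspring of +/FM7-GFP females and FM7-GFP males in another. The FM7-GFP balancer expresses GFP through a *twi*-driven GAL4, and the embryos without it were kept. The line injected to make the alleles, THattP40, expressed Cas9 under *nos*, and the injected founders were crossed to w1118 flies before stocks were made. The isoA replicates were described as biological, and the source of the isoB replicates was not stated, so the isoB p-values measure the spread between these samples, which may be technical.

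Total counts were 15841397 to 18311205 in isoA null samples and 8082962 to 12800846 in their controls, and 14378062 to 25124367 in isoB null samples and 11189291 to 23798611 in theirs. The 10 genes had between 238 and 6023 counts in every sample. *sgg* itself was at 262 to 324 CPM (counts divided by the scaled size of the library) in isoA null samples and 192 to 269 CPM in their controls, and at 262 to 339.8 CPM in isoB null samples and 326 to 384 CPM in theirs. This count covers all *sgg* exons and does not check a deletion of isoform-specific exons. Levels are in CPM on a common scale over the 14 libraries, and differences are log2 differences of null over control with standard error (SE). A gene passed the test at an adjusted p of at most 0.05 in edgeR's quasi-likelihood test, and it was called when its log2 difference was also at least 0.7, which is 1.62-fold.

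Per kilobase of exon, the highest of the 10 genes in all 4 conditions were *spi*, which encodes the main ligand Spitz, and *Ras85D*, which encodes the Ras GTPase. *spi* averaged 74.6 CPM per kb in isoA null samples, 84.8 in isoA controls, 85.6 in isoB null samples and 106 in isoB controls. *Ras85D* averaged 79.8, 70.9, 83.3 and 70.8 CPM per kb in the same order of groups. The sample ranges of these 2 genes overlapped in every group except the isoB controls, and in all groups both lay above *sty*, the third in order, at 29.5 to 45.6 CPM per kb. *vn*, the gene for the neuregulin-like ligand Vein, had the lowest mean of the 10 in each group, at 5.76 CPM per kb in isoA null samples, 5.67 in isoA controls, 11.8 in isoB null samples and 8.0 in isoB controls. In isoB null samples its range overlapped that of *rl*.

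**Figure D1:**
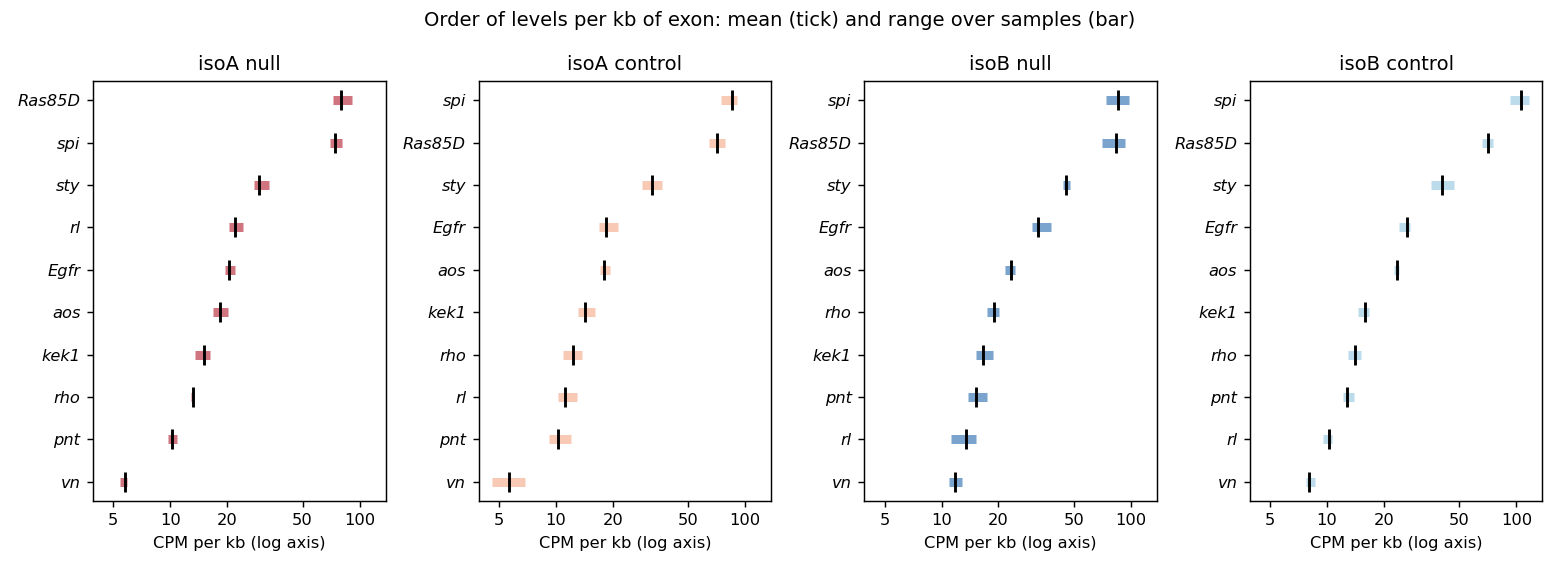
Level of the 10 genes per kilobase of exon (CPM per kb, log axis) in each of the 4 groups, ordered from high to low, with the mean as a tick and the range over samples as a bar. *spi* and *Ras85D* were at the top and *vn* at the bottom by their means in every group, and *rl* was in place 4 in isoA null samples and in place 8 in isoA controls.

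The middle of the order was close. *Egfr*, *aos*, *kek1*, *rho* and *pnt* lay between 10.2 and 32.5 CPM per kb, and many neighbours in the order overlapped in their sample ranges. The gene that changed place most was *rl*, which encodes the MAP kinase. It stood at 21.9 CPM per kb in isoA null samples, in place 4, where its range overlapped that of *Egfr*. In isoA controls it stood at 11.2 CPM per kb, in place 8, where its range overlapped those of *rho* above and *pnt* below. It was in place 9 in both isoB groups, at 13.5 CPM per kb in null samples and 10.2 in controls.

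In isoA null embryos *rl* was the single gene of the 10 that passed the test, and it rose 1.96-fold. Its level was 155, 161 and 184 CPM in isoA null samples, against 79.3, 97.7 and 77.95 CPM in controls. All 3 null samples lay above all 3 controls. The log2 difference was 0.97 (SE 0.14, 95% interval 0.65 to 1.29, adjusted p = 0.0249 by edgeR), so *rl* was also called. Over all genes tested, 0.991% passed in this comparison and 24.7% had groups that did not overlap. The exact permutation test gave p = 0.1, the smallest that 3 samples against 3 allow. With a library left out the log2 difference was at least 0.89, but *rl* passed only without control replicate 2 (adjusted p = 0.0197) or control replicate 3 (0.0223). It did not pass without null replicate 1 (0.10), null replicate 2 (0.104), null replicate 3 (0.147) or control replicate 1 (0.0804), each by edgeR. The null libraries were also the deeper ones, and the part of depth in this difference was not tested.

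*rl* (FBgn0003256) lies on 2R from 1071462 to 1125927 in the BDGP6 (dm6) assembly, and no exon base of it is shared with another annotated gene. Of the 12 tested genes nearest to it, 6 were called in isoA null embryos, 5 higher and 1 lower, where 0.971% of all genes tested were called. The median log2 difference of the 12 genes was 0.50. Distances given here are between gene midpoints. The largest difference was that of *CR40190*, 114 kb away, at 2.43 (SE 0.23, adjusted p = 0.00532 by edgeR). *CG40498*, 161 kb away on the other side, had 2.15 (SE 0.16, adjusted p = 0.00296) and *CG45781*, 582.4 kb away, had 1.73 (SE 0.30, adjusted p = 0.0412). *Yeti*, which encodes a chromatin-associated protein, was 246 kb from *rl* and had 1.02 (SE 0.11, adjusted p = 0.00892), and *CG40191* had 0.77 (SE 0.11, adjusted p = 0.0202). *CG17684*, 965 kb away, was lower, at -1.70 (SE 0.20, adjusted p = 0.0151). The other 6 neighbours did not pass. Of these, *lncRNA:CR44042*, 250 kb away, had 1.16 (SE 0.24, adjusted p = 0.0736 by edgeR), a larger difference than that of *Yeti*. The rest were *l(2)41Ab* (0.17), *Maf1* (-0.09), *CG17691* (-0.02), *CG41520* (0.23) and *MFS17* (0.01). The count of 6 became 2 without null replicate 1 or null replicate 2 and 1 without null replicate 3.

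**Figure D2:**
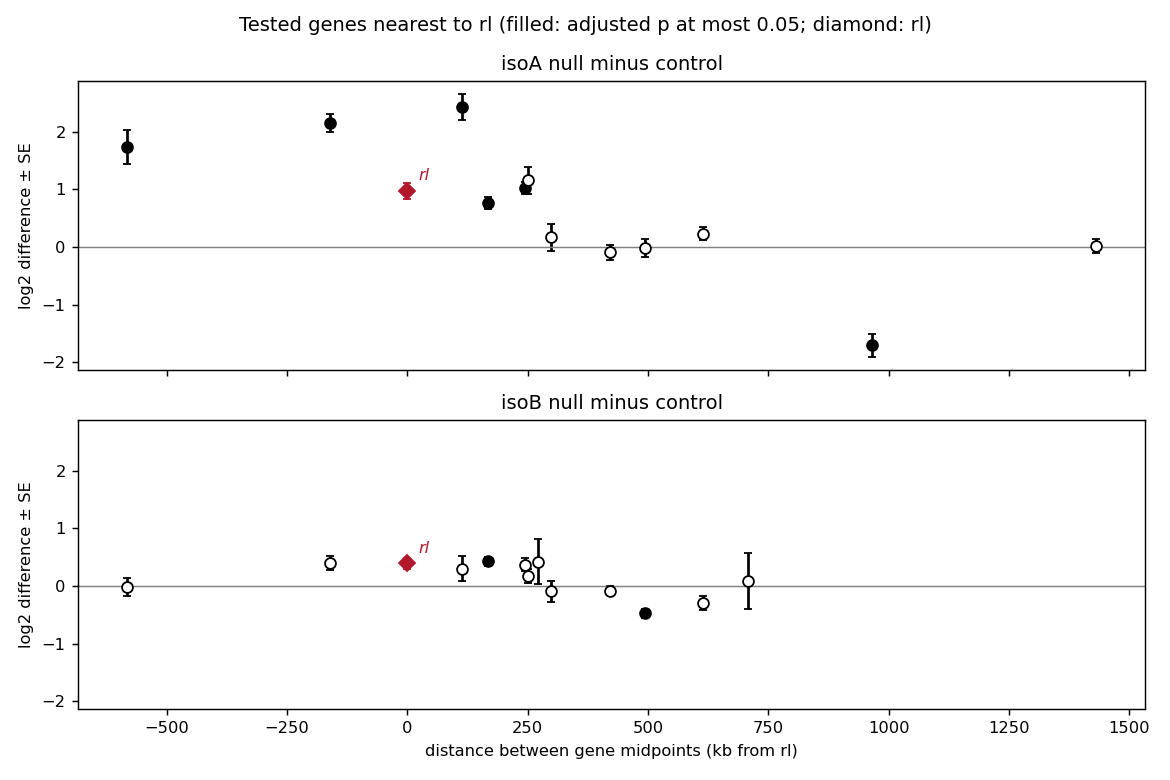
Log2 difference of null over control (± SE) of *rl* (diamond) and its 12 nearest tested genes, by distance between gene midpoints in kb, with filled points for genes that passed the test. In isoA null embryos 5 neighbours passed as higher and 1 as lower, and in isoB null embryos 1 passed as higher and 1 as lower.

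The other 9 genes of the pathway had no such surroundings. Of their 180 nearest tested genes, 20 for each, 1 passed in isoA null embryos, and the medians around the 9 genes were between -0.16 and 0.08. The part of the surroundings in the *rl* difference was not tested, and the sgg deletion and the strain background of the stock cannot be told apart in this comparison. Over all 14 samples the gene whose log2 level ran most like that of *rl* was *Yeti*, with Pearson r = 0.986, followed by *Ady43A*, also on 2R, with 0.952, and the nucleoporin gene *Nup160* on 2L, with 0.925. These are descriptions over samples that share libraries and groups. *Yeti* was at 245, 234 and 255 CPM in isoA null samples, against 116, 128 and 118 CPM in isoA controls.

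None of the other 9 genes passed in isoA null embryos by edgeR, DESeq2 or limma-voom, and each had overlapping groups and an unadjusted p of 0.05 or more by edgeR. The ligand gene *spi* was at 147, 133 and 126 CPM in isoA null samples, against 164, 136 and 162 CPM in controls, a log2 difference of -0.18 (SE 0.12, adjusted p = 0.421 by edgeR). *vn* was at 28.4, 31.1 and 30.95 CPM in null samples, against 35.8, 29.1 and 24.1 CPM in controls, so its null samples lay inside the range of its controls. *rho*, which encodes the intramembrane protease that releases active Spitz, was at 38.8, 40.1 and 39.5 CPM in null samples, against 41.1, 36.7 and 32.8 CPM in controls. *Egfr* was at 135, 152 and 138 CPM, against 148, 117 and 121.5 CPM in controls, and *Ras85D* at 147, 142 and 179 CPM, against 127, 153 and 136 CPM. In none of these did the null samples separate from the controls.

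Downstream of the kinase the values were as close. *pnt*, the gene for the ETS activator Pointed, was at 61.6, 66.1 and 59.4 CPM in isoA null samples, against 73.4, 58.8 and 56.1 CPM in controls. *aos*, which encodes a secreted antagonist that binds Spitz, was at 56.7, 51.7 and 47.2 CPM, against 54.6, 48.6 and 48.25 CPM. *sty*, the gene for the intracellular inhibitor Sprouty, was at 150.3, 181 and 150.6 CPM, against 197, 154.5 and 169.7 CPM. *kek1*, which encodes a transmembrane inhibitor of Egfr, was at 77.9, 94.1 and 88.96 CPM, against 93.1, 77.6 and 75.7 CPM. The 95% intervals of the log2 differences were -0.30 to 0.29 for *pnt*, -0.23 to 0.32 for *aos*, -0.40 to 0.18 for *sty* and -0.21 to 0.38 for *kek1*, all short of the 0.7 that a call requires. No target or inhibitor of the pathway passed beside the higher *rl*. The median log2 difference of the 10 genes was 0.06, against -0.01 over all genes tested.

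**Figure D3:**
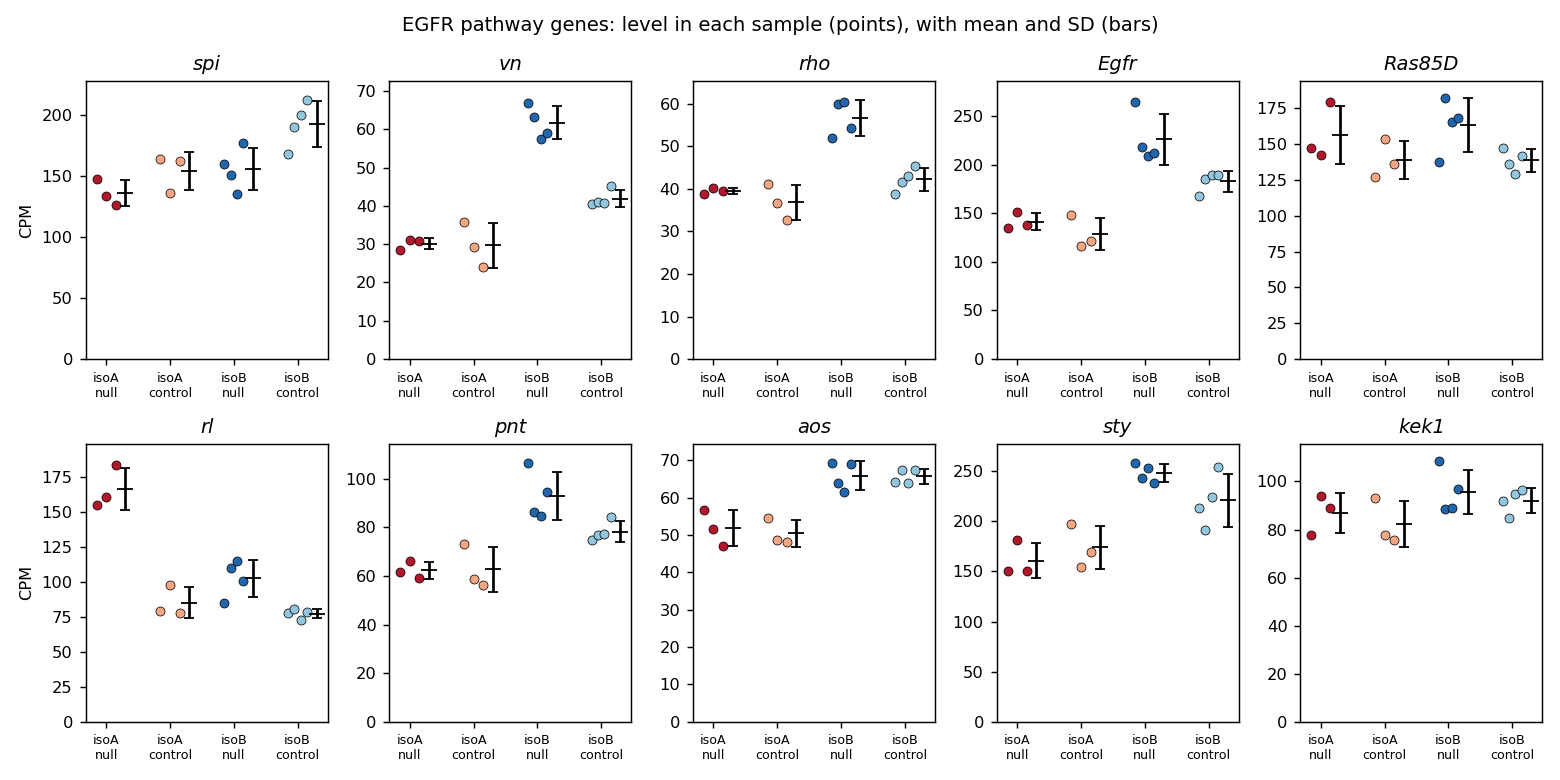
Level of each of the 10 genes in every sample (CPM, linear axis from 0), with the null group of each experiment left of its control and with the mean and SD as bars. The isoA null samples stand apart from their controls for *rl*, and the isoB null samples for *vn*, *rho*, *rl*, *Egfr* and *pnt*.

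In isoB null embryos a ligand gene, the gene of a ligand-processing protease and the MAP kinase gene were higher than in controls. The genes *vn*, *rho* and *rl* were 1.45-, 1.32- and 1.31-fold higher, and these 3 of the 10 genes passed. Over all genes tested 11.1% passed in either direction and 4.17% as higher. The 10 genes were chosen with earlier results of these data known, so shares over all genes, here and below, are descriptions and no independent comparison. None of the 10 was called, against 4.56% of all genes, and DESeq2 and limma-voom also called none. Of the 10, 7 had an unadjusted p under 0.05, without a share over all genes at that cut for comparison. The median log2 difference was 0.22, against -0.01 over all genes tested. The count of 3 became 1 without null replicate 3, control replicate 2 or control replicate 3, and 5 without null replicate 4. The sgg deletion and the strain background of the stocks cannot be told apart in the isoB comparison either. If the isoB controls were embryos of the progenitor stock, sex may have differed too and cannot be told apart.

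*vn* had the largest difference. Its level was 67.0, 63.2, 57.45 and 59.2 CPM in isoB null samples, against 40.6, 41.1, 40.8 and 45.1 CPM in controls, and every null sample was above every control. The log2 difference was 0.54 (SE 0.08, 95% interval 0.36 to 0.71, adjusted p = 0.00575 by edgeR), and *vn* passed with any 1 of the 8 libraries left out, at 0.50 to 0.57. *rho* was at 52.1, 59.9, 60.5 and 54.3 CPM in isoB null samples, against 38.9, 41.6, 43.1 and 45.3 CPM in controls, again without overlap. Its log2 difference was 0.41 (SE 0.09, adjusted p = 0.0209 by edgeR), and *rho* did not pass without null replicate 3 (0.0611), control replicate 2 (0.0649) or control replicate 3 (0.0635). *rl* was at 84.7, 110.3, 114.9 and 101 CPM in isoB null samples, against 77.8, 80.3, 72.6 and 78.4 CPM in controls, with null replicate 1 the nearest to the controls. Its log2 difference was 0.39 (SE 0.10, adjusted p = 0.0394 by edgeR). *rl* passed only without null replicate 1 (0.0140) or null replicate 4 (0.0385), and its adjusted p was 0.0673 without null replicate 2, 0.0977 without null replicate 3, and 0.0707, 0.0877, 0.119 and 0.0847 without control replicates 1, 2, 3 and 4.

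The other ligand gene, *spi*, lay in the opposite direction to *vn* and *rho* and did not pass. It was at 159.5, 151, 135 and 177 CPM in isoB null samples, against 168, 190.1, 199.8 and 212 CPM in controls, so only null replicate 4 reached into the control range. The log2 difference was -0.33 (SE 0.10, 95% interval -0.55 to -0.10, adjusted p = 0.0633 by edgeR), and *spi* passed without null replicate 4 (0.0333) or control replicate 1 (0.0419). In the exact permutation test *spi* had p = 0.0571.

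*Egfr* was at 265, 218, 209 and 212.5 CPM in isoB null samples, against 167, 185, 189.0 and 189.6 CPM in controls, and *pnt* was at 106, 86.3, 84.7 and 94.45 CPM, against 74.7, 76.8, 77.2 and 84.4 CPM. Both had groups that did not overlap, which makes 5 of the 10 genes with all null samples above all controls. Over all genes tested 9.47% had this pattern, and 20.7% had groups that did not overlap in either direction. The exact permutation test gave each of these 5 genes p = 0.0286, the smallest that 4 samples against 4 allow. In edgeR, however, neither *Egfr* (0.28, SE 0.09, adjusted p = 0.0665) nor *pnt* (0.23, SE 0.08, adjusted p = 0.106) passed. *Egfr* passed without null replicate 4 (0.0438).

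*Ras85D* was at 137, 182, 165 and 168 CPM in isoB null samples, against 147, 136, 129 and 142 CPM in controls, where null replicate 1 lay inside the control range. Its log2 difference was 0.22 (SE 0.10, adjusted p = 0.160 by edgeR), and without that library *Ras85D* passed at 0.30 (adjusted p = 0.0401). The 3 inhibitor genes had overlapping groups. *sty* was at 258, 243, 253 and 238 CPM in null samples, against 213, 192, 224 and 254 CPM in controls, *kek1* at 108, 88.4, 88.9 and 96.7 CPM, against 91.9, 84.7, 94.7 and 96.4 CPM, and *aos* at 69.2, 63.8, 61.4 and 69.0 CPM, against 64.1, 67.4, 63.9 and 67.4 CPM. Their 95% intervals were -0.05 to 0.35, -0.15 to 0.21 and -0.17 to 0.14 on the log2 scale.

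**Figure D4:**
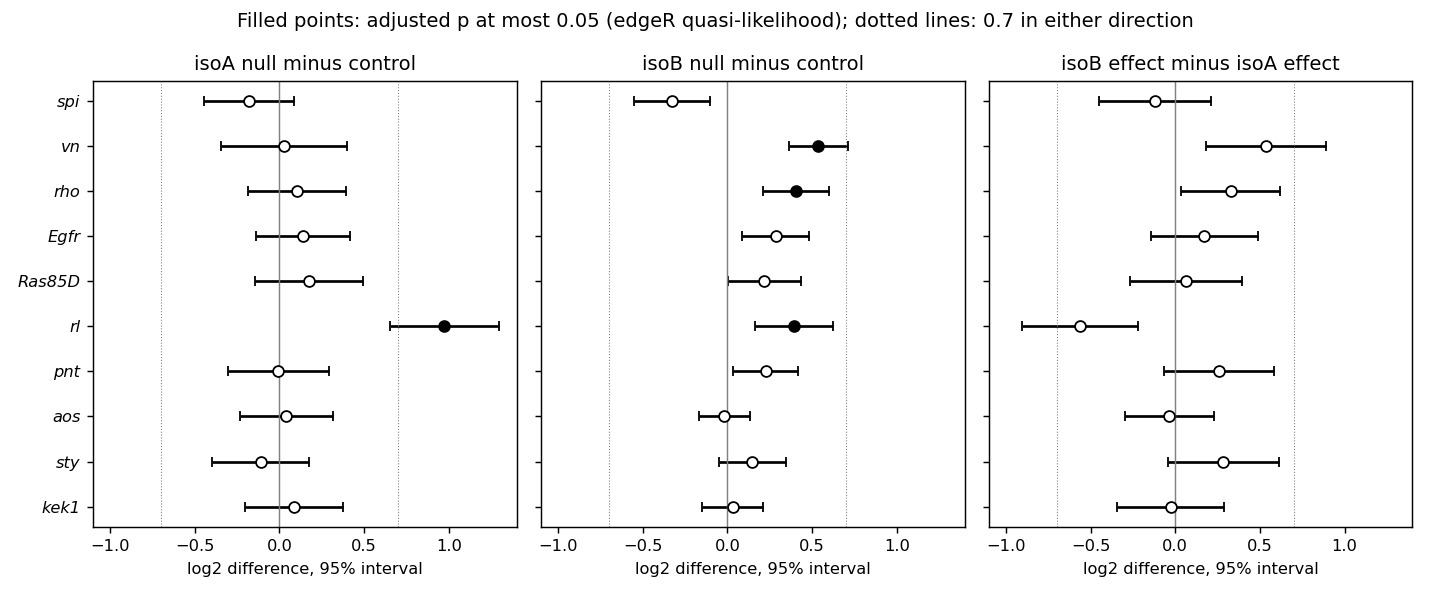
Log2 difference with its 95% interval for each gene in isoA null over control, in isoB null over control, and for the isoB effect minus the isoA effect; filled points passed the edgeR test and dotted lines mark 0.7 in either direction. *rl* passed in both experiments, *vn* and *rho* in isoB, and no gene passed in the test of the difference between the effects.

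Other transcripts moved in the same isoB samples. All 5 listed heat shock genes (*Hsf*, *Hsp83*, *Hsp68*, *Hsp26* and *DnaJ-1*) passed as higher, with a summed level of 1458 to 2554 CPM in isoB null samples and 531 to 672 CPM in controls. The summed level of 4 ventral midline markers (*sim*, *sli*, *wrapper*, *comm*) was 734.5 to 963 CPM in null samples and 681.5 to 743 CPM in controls, and 1 of them, *comm*, passed as higher. Most of this sum came from *sli*, with means of 661 CPM in null samples and 574 CPM in controls. The groups of *sli* overlapped, and it did not pass (adjusted p = 0.248 by edgeR). For 9 early patterning genes the sums were 187.5 to 201 CPM in isoB null samples and 161.5 to 182 CPM in controls, and 146 to 155 CPM in isoA null samples and 116.5 to 138 CPM in isoA controls, with 0 genes past the test and 0 at an unadjusted p under 0.05 by edgeR in either experiment. Of 5 epidermis markers 4 had an unadjusted p under 0.05 in isoB, in both directions, without a share over all genes for comparison. *ple* (0.60) passed as higher, and *kkv* (0.27), *Ddc* (-0.81) and *Cpr47Eg* (-1.16) did not pass. Their sums were 592 to 805 CPM in isoB null samples and 569.8 to 634 CPM in controls. None of the 5 neuron, 5 muscle, 3 trachea or 4 maternal markers passed by edgeR in either experiment (3 had an unadjusted p under 0.05 in isoA and 2 in isoB), and no marker was at 0 in all samples. Their part in the differences of *vn*, *rho* and *rl* was not tested, and in whole embryos fewer cells of a type and less RNA per cell cannot be told apart.

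The most alike genes to *vn* over the 14 samples were *pxb* (Pearson r = 0.989), *puc*, the JNK phosphatase gene (0.985), and the Sox transcription factor gene *SoxN* (0.981). For *rho* they were the lamin gene *Lam* (0.961), the zinc finger gene *noc* (0.955) and *CG10479* (0.942). As descriptions these correlations share the same libraries and the same group differences. Around *rl*, 0 of the 12 nearest tested genes were called in isoB null embryos, and 2 passed: *CG40191* at 0.43 (SE 0.08, adjusted p = 0.0126 by edgeR) and *CG17691* at -0.47 (SE 0.08, adjusted p = 0.00976). Of the 180 tested genes nearest to the other 9 members, 14 passed and 4 were called in isoB. Over all genes tested 11.1% passed and 4.56% were called. *Yeti* was at 116, 168, 154 and 138.5 CPM in isoB null samples, against 108, 112, 109 and 113 CPM in controls, and did not pass (adjusted p = 0.0625 by edgeR).

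The isoB effect was then set against the isoA effect in a fit of all 14 samples. None of the 10 genes passed, where 2.54% of all genes did. Of the 10, 3 had an unadjusted p under 0.05, without a share over all genes at that cut for comparison. DESeq2 passed 2 of the 10 (*rl* and *vn*), but it passed 865 genes in all against 280 by edgeR. limma-voom passed 0 of the 10. *rl* had the most negative value, -0.56 (SE 0.16, 95% interval -0.90 to -0.22, adjusted p = 0.0733 by edgeR), since it was higher by 0.97 in isoA and by 0.39 in isoB. *vn* had the most positive, 0.54 (SE 0.17, 95% interval 0.18 to 0.89, adjusted p = 0.0901), with 0.03 in isoA and 0.54 in isoB. *rl* passed without isoA control replicate 2 (0.0303) and *vn* without isoA control replicate 3 (0.0329). That *vn* and *rho* passed in isoB and not in isoA therefore did not amount to a tested difference between the experiments, and the cross, the sorting and the maternal product differed between them too.

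The 2 control groups were compared in the same fit to show where the pathway stood without a mutation. Of the 10 genes, 6 passed, all higher in isoB controls. Over all genes tested 26.8% passed in either direction and 12.6% as higher. By edgeR, DESeq2 or limma-voom 0 of 10 were called, against 9.35% of all genes by edgeR. limma-voom passed 4 (*Egfr*, *vn*, *aos* and *sty*), and the count of 6 fell to 3 without isoA control replicate 2 or 3 or without isoB control replicate 3 or 4, with *Egfr*, *vn* and *aos* still among the genes that passed. *Egfr* averaged 183 ± 10.4 CPM (SD, n = 4) in isoB controls and 129 ± 16.8 CPM (SD, n = 3) in isoA controls, a log2 difference of 0.50 (SE 0.11, adjusted p = 0.00540 by edgeR). *vn* averaged 41.9 ± 2.12 CPM in isoB controls and 29.7 ± 5.89 CPM in isoA controls, a log2 difference of 0.50 (SE 0.12, adjusted p = 0.00990). *aos* (0.38), *sty* (0.34), *spi* (0.32) and *pnt* (0.32) also passed, while *rho* (0.20), *kek1* (0.16), *Ras85D* (-0.0009) and *rl* (-0.14) did not. For *Egfr* and *vn* the difference between the control groups was thus about as large as, or larger than, that between isoB null samples and their own controls. Higher values in isoB controls were not particular to the 10 genes. Of 47 further genes described below, 41 were higher in isoB controls, and 16 passed as higher and 1 as lower by edgeR. Among them were 7 receptor tyrosine kinases outside EGFR signalling, of which 7 were higher and 2 passed. The control groups carry the same line label, and the experiment, the balancer cross, sex and sorting cannot be told apart in this comparison. Some marker genes differed between the control groups too. By edgeR *sim* was higher in isoB controls (1.17, adjusted p = 0.00142) and *Hsp83* lower (-1.04, adjusted p = 0.00305), while *elav* did not pass (0.15, adjusted p = 0.301). The part of such differences in those of the 10 genes was not tested.

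Outside the 10 genes, 47 further genes, grouped in 7 lists by role, were tested. Of these lists 1 held other receptor tyrosine kinases that use the same kinase cascade and are not genes of EGFR signalling. They were *btl*, *htl*, *tor*, *Alk*, *sev*, *Pvr* and *InR*, and they are part of the counts and medians of the 47. In isoA null embryos 0 of 47 passed by edgeR, DESeq2 or limma-voom, where 0.991% of all genes passed by edgeR. The median log2 difference was 0.14, against -0.01 over all genes tested. An unadjusted p under 0.05 by edgeR was found for 11 of the 47. No share over all genes at that cut stands beside this count, so it is not read as an excess. Of the 12 genes of the Ras to MAP kinase core and its phosphatases 9 were higher in isoA null samples, with a median of 0.27, and none passed. In isoB null embryos 2 of 47 passed, both as higher, and the median was 0.09. Over all genes tested 11.1% passed in either direction and 4.17% as higher, so the share in the list was near the background and is not a result about the pathway. DESeq2 passed 6 (*S*, *Shc*, *Src42A*, *ed*, *aop* and *tyn*). It also called more genes in isoB than edgeR did, 643 against 488, and no DESeq2 share of all genes passing stands beside the 6. Of the 7 genes of receptor adaptors and turnover, 7 had positive values in isoB, with a median of 0.18 and none past the test. Of the 7 genes for ligands and their processing, 3 had positive and 4 negative values in isoB. No share of positive values over all genes stands beside these counts or the 9 of 12 in isoA, so they are not read as an excess.

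*S* encodes Star, which carries the Spitz precursor out of the endoplasmic reticulum to Rhomboid. It was at 113, 117.5, 99.1 and 109 CPM in isoB null samples, against 84.9, 69.2, 71.2 and 80.1 CPM in controls, without overlap. The log2 difference was 0.50 (SE 0.09, adjusted p = 0.0111 by edgeR), and *S* passed with any 1 library left out. *ed* encodes Echinoid, an adhesion molecule that antagonises the pathway. It was at 663, 630.5, 592 and 540.3 CPM in isoB null samples, against 464, 441, 497 and 503.5 CPM in controls. Its log2 difference was 0.33 (SE 0.08, adjusted p = 0.0351 by edgeR), and *ed* passed only without null replicate 4 (0.0149); leaving out any other library gave 0.0577 to 0.102. The count of 2 of 47 was 8 without null replicate 4 and 1 without any other single library. Of the 7 genes for ligands and their processing other than *spi*, *vn* and *rho*, *S* alone passed, and the median of the list was -0.09.

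**Figure D5:**
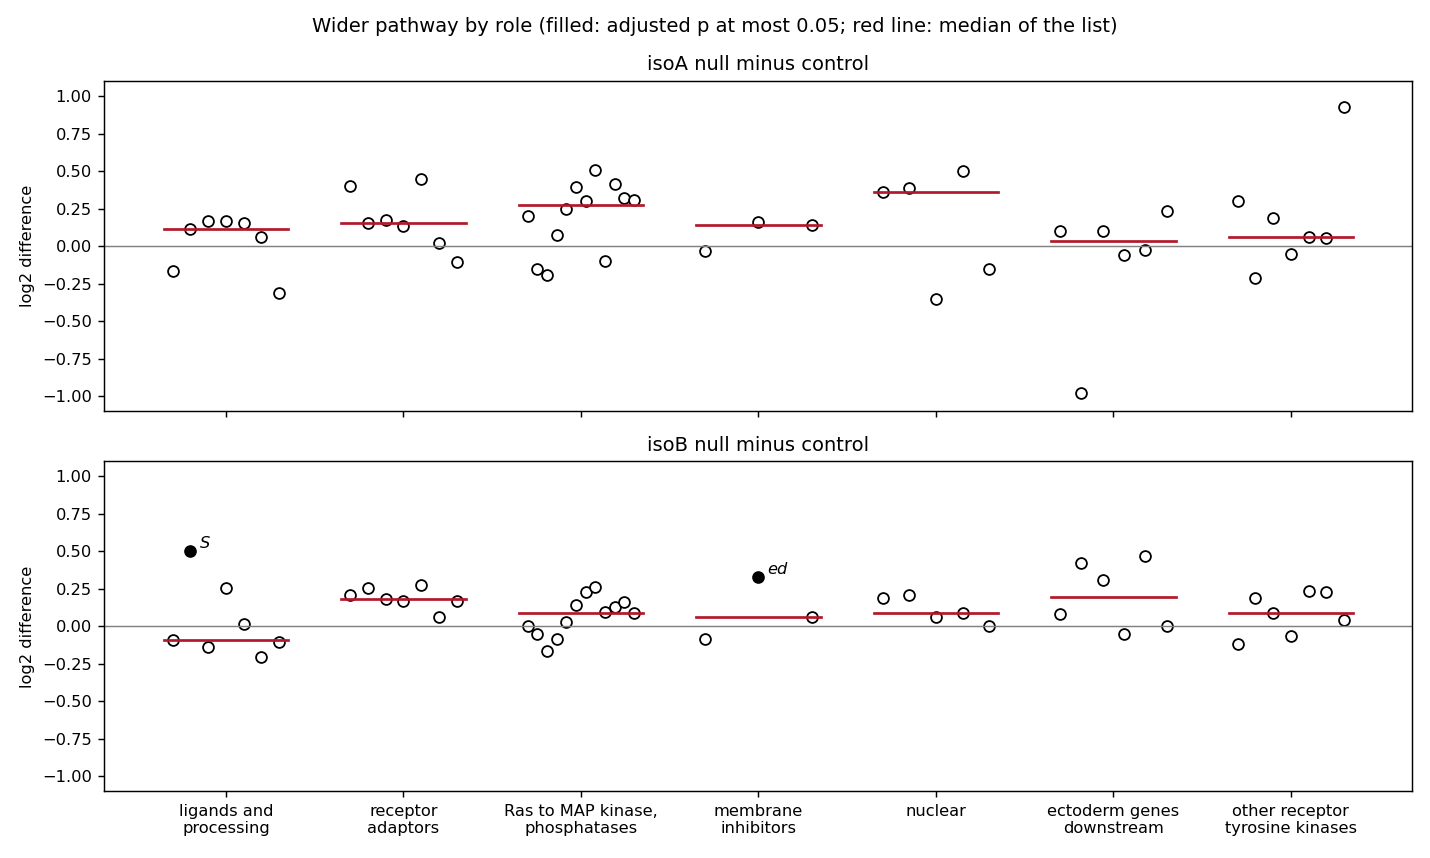
Log2 difference of null over control for 47 further genes of the pathway in 7 lists by role, in isoA and isoB, with filled points for genes that passed the edgeR test and a red line at the median of each list. No gene passed in isoA, and *S* and *ed* passed in isoB.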

How the data were processed

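The authors aligned the reads with TopHat2 2.1.1 and Bowtie2 2.3.4.0 and counted them over FlyBase release 6 exons with Rsubread, which at its defaults ignores strand and drops reads that overlap several genes. The deposited counts are raw and were used here. The authors also deposited log2 CPM values, and log2 fold changes and p-values of their own comparisons; these were not used. No sample column was without a mapped sample (0).

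Each experiment was fitted on its own samples in R 4.3.3 with edgeR 4.0.16 (filterByExpr with a minimum count of 10 and a minimum total of 15, TMM scaling, two-sided quasi-likelihood test, Benjamini-Hochberg adjustment over all genes kept). Interaction and control contrasts came from a fit of all 14 samples. Thresholds were those of the study, an adjusted p of 0.05 and a log2 difference of 0.7. Exact permutation tests were two-sided, on log2 CPM with a prior count of 2. Total counts are given with the results; the 18 replicate pairs differed beyond sampling noise (chi-squared per gene 13.1 to 84.4). Alternatives were RLE scaling, no filter, DESeq2 1.42.0, limma-voom (limma 3.58.1), a replicate block, a joint fit and each library left out.

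The members and lists were chosen with earlier results of these data known. All 10 members are named, with listed pathway genes that passed in either comparison or the interaction, called neighbours of a called member (up to 10 tested genes on each side), and the 3 genes most alike in log2 CPM to members that passed. For *rl*, further neighbours were named after their values were seen, as were markers that passed. Of 49 listed pathway names 47 were separate genes with counts. Positions and exon lengths are from an Ensembl annotation of BDGP6 that is later than the one counted on; 17362 of 17493 identifiers matched.

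On simulated data with 200 changed genes (log2 changes of 1 or 1.5) edgeR recovered 144 of 197 tested in the isoA design with 10 false calls, 166 of 196 in the isoB design with 8, and 117 of 200 for the interaction with 3. The test had required more than 120 for each, and this minimum was lowered to 100 after the interaction result was seen. Of the genes changed by 1, edgeR recovered 56 in the isoA design, 74 in the isoB design and 46 for the interaction. No change below 1 was simulated, so recovery of differences as small as most of those of the 10 genes was not measured.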

Additional observations from a re-analysis of the deposited data

Results flagged for a closer look

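In 1 of 20 groups of 4 samples (the 10 genes in isoB null samples and in isoB controls), a sample stood apart from the other 3 by Dixon's criterion, as chance gives in about 1 of 20 groups. This was *vn* in isoB control replicate 4, at 45.08 CPM, the highest of its controls and still below all isoB null samples.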

How the results depend on the processing

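No alternative turned a difference that had passed. Signs turned for values near 0: *aos* in isoB (-0.02) became 0.0081 with RLE scaling, 0.0132 without the filter, 0.0090 with DESeq2 and 0.0040 in the fit of all 14 samples, *pnt* in isoA (-0.0061) became 0.0050 with DESeq2, and *Ras85D* between the controls (-0.0009) became 0.0218 without the filter, 0.0008 with DESeq2 and 0.0052 with limma-voom.

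With DESeq2, 399 genes were called in isoA (101 with edgeR) and 643 in isoB (488), and 865 effects differed (280). In isoB 5 of the 10 genes and 6 of the 47 further genes passed with DESeq2 (3 and 2 with edgeR). The fit of all 14 samples called 295 in isoA.

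Same-numbered samples did not deviate together (correlations of -0.14 to -0.06 in isoA and -0.17 to 0.19 in isoB, where only replicates 3 and 4 matched their own number best). With replicate number as a block, 43 genes were called in isoA and 170 in isoB (488 without), 63 effects differed, and 0 of the 10 genes passed in isoA or isoB and 0 of 47 in isoB; *rl* in isoA had 0.98 (adjusted p = 0.0614 by edgeR), *rl* in isoB 0.38 (0.117), *rho* 0.40 (0.0819), *vn* 0.54 (0.0522), *S* 0.50 (0.0615) and *ed* 0.33 (0.126), and *pnt* in isoA turned to 0.0018.

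Leaving out 1 library gave 6 to 183 genes called in isoA (6 without null replicate 3, 183 without control replicate 3), 202 to 676 in isoB (202 without control replicate 3), 103 to 579 effects that differed (103 without isoA null replicate 3, 579 without isoA control replicate 2) and 559 to 1359 genes that differed between the controls (main 1030, 559 without isoA control replicate 3). Of the 10 genes 0 to 1 passed in isoA and 1 to 5 in isoB, and of the 47 genes 1 to 8 in isoB. For results added after the data were seen, 1 to 6 of the 12 neighbours of *rl* were called in isoA, and 3 to 6 of the 10 genes passed between the controls. Signs turned within these ranges: *aos* -0.0262 to 0.1005 in isoA, -0.0346 to 0.0164 in isoB and -0.1136 to 0.0299 in the interaction, *pnt* -0.0884 to 0.1049 in isoA, *vn* -0.1147 to 0.1673 in isoA, *kek1* -0.0244 to 0.0878 in isoB and -0.1443 to 0.0291 in the interaction, *Ras85D* -0.0374 to 0.1709 in the interaction and -0.0551 to 0.1253 between the controls, and *rl* -0.1699 to 0.0237 between the controls.

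The 95% intervals of the 10 genes reached 0.27 to 0.37 to each side on the log2 scale in isoA and 0.15 to 0.23 in isoB, so a gene that did not pass is not shown to be unchanged.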
